A study of Homo sapiens with 11 samples.

Results

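The transcriptomes of 3 parallel culture wells, all collected on Day 60 of cardiomyocyte differentiation, were compared with each other gene by gene. The genes considered were those with a mean of at least 5 CPM over the 3 wells, which held for 11783 of the 19990 genes counted. CPM is the number of read counts per 1000000 counts of the library, after a TMM scaling that sets the bulk of genes to a common level. The cells were of the human line WTC11 (induced pluripotent stem cells, widely used and established), at passage 63. Every well received CHIR99021, a GSK3 inhibitor, and later IWP2, an inhibitor of Wnt secretion, and was then kept in B27 medium with insulin. The wells of Day 60 (3 replicates) are the subject here, and those of Day 30 and Day 113 (4 replicates each) served as a second look at the same genes. The wells are titled as well replicates of 1 line at 1 passage, and the titles do not say whether they share a differentiation. The spread between them is therefore taken to cover neither another line nor another differentiation. Cardiomyocyte purity was measured by flow cytometry on Day 16, before the cultures of these later days.

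Directed differentiation turns pluripotent cells into mesoderm and then into beating cardiomyocytes by raising and then blocking Wnt signalling. Small numbers of other cells can persist or arise in such cultures, and each well then carries its own history of them. The eye lens is built from elongated fibre cells filled with crystallins, the soluble proteins that give the lens its refractive power. The neural retina starts from an eye field marked by transcription factors such as PAX6, RAX, SIX3 and LHX2. Hypoxia response genes are switched on by the HIF transcription factors when oxygen is scarce. Fibrillar collagens and microfibril proteins form the extracellular matrix, which in the heart is made mainly by fibroblasts.

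Sequencing depth was 32.4, 26.8 and 31.6 M counts in replicates 1, 2 and 3, where M stands for 1000000. Cardiomyocyte markers were high in each well, with 12 of 12 listed markers above the level cut and a summed level of 50320, 43420 and 43120 CPM in replicates 1, 2 and 3. The 2 macrophage and blood markers present in the table summed to 1.10 to 1.37 CPM, and none of that list passed the level cut. The chondrocyte and bone list summed to 325.0, 408.2 and 346.3 CPM with 7 of 15 listed genes above the cut, although ACAN, a defining cartilage gene, had no count in any Day 60 well. The endoderm and hepatocyte list summed to 50.8, 63.8 and 61.8 CPM with 3 of 19 above the cut. Each pair of wells differed by more than counting noise, since the chi-square statistic divided by its degrees of freedom was 33.0 to 38.5, so no 2 libraries were taken for the same library.

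Most genes differed little between the wells. The median gene had an SD of 0.156 in log2 CPM and a ratio of highest to lowest well of 1.23. Counting alone gave a median SD of 0.0453, and 94.0% of genes varied by more than their counting SD. A range of at least 2-fold between the highest and the lowest well was seen for 330 genes (2.8%), and a range of at least 4-fold for 27 genes. Since each well is a single library, these ranges are descriptions of 3 libraries and carry no test. Low genes held most of the wide ranges: 7.22% of genes with 5 to 20 CPM had one, against 0.807% with 20 to 100 CPM, 0.21% with 100 to 500 CPM and 0.926% at 500 CPM or more. The 5 least variable genes above 100 CPM included TCP1, a subunit of the cytosolic chaperonin, at 110.3, 110.1 and 110.4 CPM. Another was AKT1, a kinase of insulin signalling, at 115.7, 116.6 and 116.1 CPM.

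The 3 pairs of wells lay about equally far apart. Replicates 1 and 3 were 2-fold apart in 196 genes, replicates 1 and 2 in 141 and replicates 2 and 3 in 136. A gene is called set apart here when 1 well lies at least 2-fold above, or at least 2-fold below, both other wells. Replicate 1 was set apart by low values in 68 genes (0.577% of all) and by high values in 5 genes (0.0424%). Replicate 2 was set apart by high values in 18 genes (0.153%) and by low values in 11 genes (0.0934%). Replicate 3 was set apart by low values in 39 genes (0.331%) and by high values in 2 genes (0.017%), THRB and FOXN4. In all, 131 genes were set apart in some well, 12 of them in 2 ways, such as low in replicate 1 and high in replicate 2. The other 199 genes with a 2-fold range lay spread along the 3 wells.

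**Figure D1:**
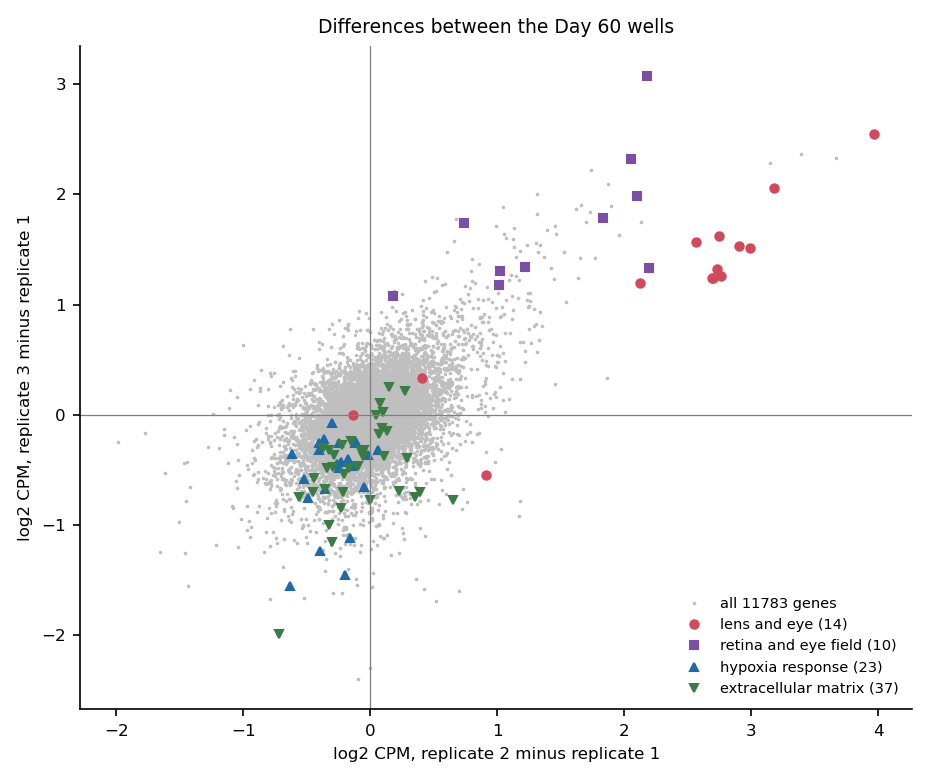
Each point is 1 gene, placed by its log2 CPM in replicate 2 minus replicate 1 (horizontal axis) and in replicate 3 minus replicate 1 (vertical axis), with 4 gene lists coloured and all 11783 genes in grey. Most lens genes and all retina genes lie to the upper right, with replicate 1 lowest for 12 of 14 and 10 of 10 of them. The lens list members MAF and PROX1 lie nearer to the origin, and BFSP1 lies below 0 on the vertical axis. Hypoxia and matrix genes lie mostly below 0 on the vertical axis.

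The widest differences between the wells were in lens genes. Of the 15 lens and eye markers listed, 14 passed the level cut and 12 of these had a 2-fold range (2.8% of all genes). The median range of the 14 was 6.56-fold against 1.23-fold over all genes. Replicate 2 was the highest well for 13 of the 14 genes (32.7% of all genes) and replicate 1 the lowest for 12 (28.1% of all genes). The full order of replicate 2 above replicate 3 above replicate 1 was shared by 12 of the 14, an order that 13.6% of all genes had. The summed level of the list was 256.5, 948.5 and 487.1 CPM in replicates 1, 2 and 3. In bulk RNA, fewer cells of a type and less RNA per cell cannot be told apart.

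To show what stands upstream of the genes with the widest ranges, the 250 bases before the start of 4 crystallin genes are printed 5′ to 3′ on the gene's strand (RefSeq, GRCh38.p14). Capitals mark TGCTGA, searched on both strands, the core letters of the MAF recognition element. MAF proteins are transcription factors known for activating crystallin genes. The last 3 letters of TGCTGA are also the first 3 of the AP-1 site TGACTCA, so a match can run into such a site. The AP-1 site itself was not searched for. The windows are chr21:43168758-43169007 on the plus strand for CRYAA, chr22:26618028-26618277 on the minus strand for CRYBB1, chr17:29246609-29246858 on the plus strand for CRYBA1 and chr22:25199608-25199857 on the plus strand for CRYBB3, where the match reads TCAGCA because it lies on the opposite strand.
CRYAA: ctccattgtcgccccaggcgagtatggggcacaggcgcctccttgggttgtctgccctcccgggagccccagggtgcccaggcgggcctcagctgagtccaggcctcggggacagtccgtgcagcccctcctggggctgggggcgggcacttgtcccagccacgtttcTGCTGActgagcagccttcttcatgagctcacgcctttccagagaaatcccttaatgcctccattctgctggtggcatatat
CRYBB1: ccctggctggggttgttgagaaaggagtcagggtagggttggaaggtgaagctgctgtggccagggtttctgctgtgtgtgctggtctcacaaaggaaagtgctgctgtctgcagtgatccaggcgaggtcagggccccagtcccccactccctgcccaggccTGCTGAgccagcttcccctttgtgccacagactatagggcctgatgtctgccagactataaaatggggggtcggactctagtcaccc
CRYBA1: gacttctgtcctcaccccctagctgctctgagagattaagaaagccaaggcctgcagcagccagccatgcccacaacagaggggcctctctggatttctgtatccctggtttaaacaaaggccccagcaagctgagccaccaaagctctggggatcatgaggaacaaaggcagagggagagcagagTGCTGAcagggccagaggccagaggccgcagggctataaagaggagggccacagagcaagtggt
CRYBB3: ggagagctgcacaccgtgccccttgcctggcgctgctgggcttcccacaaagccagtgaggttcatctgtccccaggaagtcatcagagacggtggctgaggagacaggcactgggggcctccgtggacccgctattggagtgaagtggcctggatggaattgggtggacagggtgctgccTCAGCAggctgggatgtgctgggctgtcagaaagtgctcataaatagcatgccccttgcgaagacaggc
TGCTGA was found in 9 of the 13 lens list promoters with a RefSeq window (69.2%), against 14.1% of all 27305 windows of this length. In these 4 genes the match began 82, 87, 64 and 69 bases before the gene start. No match was found in the windows of CRYGC, BFSP1, LIM2 and MIP. A match is a description of the letters and does not show that a factor bound there.

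CRYAA (chromosome 21, 43169008 to 43172810), which encodes alpha-A crystallin, a small heat shock protein and a main structural protein of the lens, was at 4.25, 66.6 and 24.9 CPM in replicates 1, 2 and 3. These levels rest on 133, 1808 and 790 counts, and the 15.6-fold range between the wells was the widest found. CRYAA2, a near-identical copy of CRYAA, was at 4.82, 61.3 and 24.4 CPM, and how reads were split between the copies is uncertain. CRYBB1 (chromosome 22, 26599278 to 26618027), a beta crystallin, was at 23.8, 216.3 and 99.05 CPM, a 9.07-fold range. In each of these genes replicate 2 stood highest, replicate 3 in between and replicate 1 lowest.

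CRYBA1, a further beta crystallin, was at 17.6, 139.2 and 50.2 CPM, a 7.92-fold range. CRYBB3 was at 4.50, 33.8 and 13.03 CPM, and its neighbour CRYBB2 at 17.1, 101.2 and 50.5 CPM. CRYBA4, at 16.8, 111.7 and 41.95 CPM, has an annotated span (26590220 to 26630669 on chromosome 22) that includes CRYBB1, so shared reads are possible, and whether counting used strand is not given in the sources used here. The 4 genes repeated the order seen for CRYAA.

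Other lens genes largely followed the same order. MIP, the water channel aquaporin 0 of lens fibres, was at 2.46, 15.9 and 5.84 CPM. LIM2, a lens fibre membrane protein, was at 2.04, 13.3 and 4.86 CPM, so it passed the level cut through replicate 2. BFSP1, a lens intermediate filament protein, differed from them in having replicate 3 lowest, at 6.80, 12.8 and 4.64 CPM. BHMT (betaine-homocysteine methyltransferase, an enzyme of methionine synthesis), which is outside the list, ran with the crystallins at 15.99, 168.1 and 82.7 CPM, a 10.5-fold range.

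The transcription factors of the lens list did not share these ranges. MAF was at 15.7, 20.8 and 19.8 CPM and PROX1, which cardiomyocytes also express, at 129.2, 117.2 and 129.0 CPM. Their ranges of 1.32-fold and 1.10-fold lay near that of the median gene. Leaving out any 1 of the 3 wells left 11 of the 14 lens genes with a 2-fold range.

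Genes of the retina and eye field also varied, with replicates 2 and 3 closer together than for the lens genes. This list was drawn up after the Day 60 values had been seen, so its counts are a description. All 10 members above the level cut, of 18 listed, had a 2-fold range and were lowest in replicate 1 (28.1% of all genes). A 2-fold range was seen for 2.8% of all genes and for 7.22% of genes with 5 to 20 CPM. Some members, such as SOX2 and PTPRZ1, passed the level cut only through replicates 2 and 3, which makes low values in replicate 1 more likely. Replicate 3 was the highest well for 7 of the 10 genes (31.4% of all genes) and replicate 2 for 3 (32.7% of all genes). The summed level was 59.8, 151.6 and 175.6 CPM. A pigment epithelium list, also added later, had 5 of 12 genes above the cut, 0 of them with a 2-fold range. Its median range was 1.42-fold, its sums were 279.0, 310.2 and 291.0 CPM, and 3 of the 5 genes were lowest in replicate 1. PAX6 (chromosome 11, 31789026 to 31817961), a master regulator of eye development that is also active in lens and brain, was at 19.3, 44.9 and 48.7 CPM. Replicates 2 and 3 lay close together, with replicate 1 well below.

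RAX, an early eye field factor, was at 3.13, 13.5 and 12.5 CPM. LHX2, a further eye field factor, was at 3.35, 11.98 and 11.6 CPM. SIX3, a forebrain and eye homeobox factor, was at 10.1, 20.5 and 24.95 CPM. SOX2, a factor of neural progenitors and pluripotent cells, had the widest range of the retina list at 1.08, 4.98 and 9.27 CPM, which is 8.44-fold. Without replicate 1, 1 of the 10 retina genes kept a 2-fold range (136 of all 11783 genes), so the pattern of the retina list is the low values of that well.

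Other neural genes moved the same way. All 6 neural and neural crest markers above the level cut, of 17 listed, were lowest in replicate 1 (28.1% of all genes). A 2-fold range was seen for 3 of the 6 (2.8% of all genes): PAX6 and SOX2, already given, and STMN2. STMN2, a microtubule regulator of neurons, was at 2.58, 8.84 and 6.94 CPM. Of the 68 genes set apart by low values in replicate 1, 11 were on the lens list, 8 on the retina list and 3 on the neural list, with 45 on no list. Among the genes on no list were the neural genes ZIC1, DCC, NRCAM and GPM6A, picked out after their values were seen. The same group of 68 held RNAs that poly(A) selection should deplete or that stay in the nucleus. MALAT1, a nuclear long noncoding RNA, was at 45.2, 118.3 and 144.5 CPM, and RN7SK, a small nuclear RNA, at 3.16, 10.5 and 14.8 CPM. The part of such RNA carry-over in the values of replicate 1 was not tested.

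**Figure D2:**
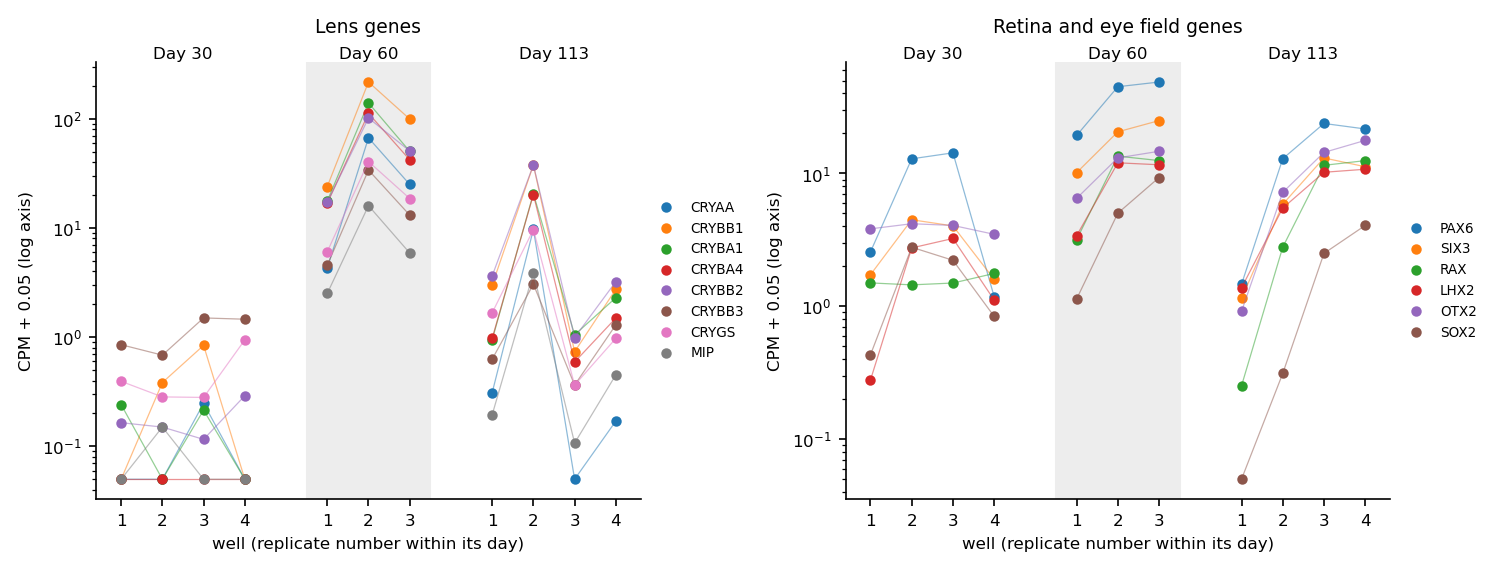
CPM plus 0.05 on a log axis for 8 lens genes (left) and 6 retina and eye field genes (right) in the wells of Day 30, Day 60 (shaded) and Day 113; points are single wells and thin lines only join the values of 1 gene. At Day 60 replicate 2 is the highest well for all 8 lens genes and replicate 1 the lowest for all 14 genes, and at Day 113 the lens genes peak in replicate 2 while all 6 retina genes are lowest in replicate 1.

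The wells of the other days gave a second look at these groups. The lists were chosen with earlier results of these data known, so this look is a description and not an independent test. At Day 30 CRYAA had counts in 1 of 4 wells, with 0.198 CPM in replicate 3. At Day 113 it was at 0.26, 9.63, 0 and 0.12 CPM in replicates 1 to 4. CRYBB1 was at 2.94, 37.6, 0.685 and 2.69 CPM at Day 113, and CRYBA1 at 0.895, 20.6, 0.999 and 2.25 CPM. One Day 113 well, replicate 2, thus carried most of the RNA of these 3 genes. Of the 14 lens genes, 12 were highest in that well, which was the highest well for 37.6% of all genes.

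The retina genes were spread differently at Day 113. RAX was at 0.202, 2.74, 11.5 and 12.4 CPM in replicates 1 to 4. PAX6 was at 1.41, 12.9, 23.7 and 21.6 CPM, and SOX2 at 0, 0.262, 2.45 and 4.01 CPM. Replicates 3 and 4, which were low in crystallins, were the high wells for these 3 genes. In 9 of the 10 retina genes replicate 1 was the lowest well at Day 113, against 25.4% of all genes. At Day 30 the wells already differed, with PAX6 at 2.52, 12.8, 14.3 and 1.13 CPM. The labels do not tie a well number of one day to the same number of another.

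Replicate 1 was the high well for hypoxia response genes. Of 24 listed genes, 23 passed the level cut, and 22 of these were highest in replicate 1 (36.0% of all genes) while 18 were lowest in replicate 3 (39.3% of all genes). The order of replicate 1 above 2 above 3 was shared by 17 of the 23, against 20.2% of all genes. The shifts were small for most members: the list medians lay 0.24 above and 0.22 below the gene's mean over the wells, in log2 units, in replicates 1 and 3. A 2-fold range was reached by 4 of the 23 genes (2.8% of all genes), ADM, ANGPTL4, PFKFB4 and STC2. With library totals in place of TMM, 20 of the 23 stayed highest in replicate 1, while the share of all genes highest there fell to 26.3%.

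ADM (chromosome 11, 10305073 to 10307397), which encodes the vasodilator peptide adrenomedullin, was at 70.1, 45.2 and 23.9 CPM in replicates 1, 2 and 3, a 2.93-fold range. ANGPTL4, a secreted inhibitor of lipoprotein lipase, was at 16.5, 14.3 and 5.99 CPM, a 2.75-fold range. PFKFB4, a regulator of glycolytic flux, was at 128.4, 97.4 and 54.4 CPM, a 2.36-fold range. STC2, a secreted glycoprotein, was at 122.1, 109.0 and 56.3 CPM, a 2.17-fold range. Replicate 3 was the low well in each case, and without it none of the 23 genes had a 2-fold range. Without replicate 1, 1 gene had one. Over all 11783 genes the numbers were 141 without replicate 3 and 136 without replicate 1.

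Milder differences ran through the rest of the list. EGLN3, an oxygen-sensing prolyl hydroxylase, was at 374.5, 266.3 and 221.4 CPM. VEGFA, the main vessel growth factor, was at 994.2, 827.6 and 730.4 CPM. BNIP3, a mitophagy receptor, was at 899.5, 679.3 and 752.0 CPM. SLC2A1, the basal glucose transporter, was the exception with replicate 2 highest, at 764.4, 796.3 and 612.9 CPM. Of the 25 glycolysis genes, 21 were highest in replicate 1 (36.0% of all genes). PFKFB3, a second regulator of glycolytic flux, had a 2-fold range at 91.9, 77.8 and 37.9 CPM. Replicate 1 was also the highest well for 17 of 22 fatty acid oxidation genes and 16 of 22 ion channel and gap junction genes (36.0% of all genes). With library totals in place of TMM these counts were 12 and 14 (26.3% of all genes). Among 39 cytosolic ribosomal protein genes replicate 1 was the highest well for 0.

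The 250 bases before ANGPTL4 (chr19:8363905-8364154, plus strand, RefSeq, GRCh38.p14) are shown because this was the only one of the 4 genes above with the HIF core ACGTG in that window. Capitals mark the match, which lies on the opposite strand and so reads CACGT, 234 bases before the gene start.
ANGPTL4: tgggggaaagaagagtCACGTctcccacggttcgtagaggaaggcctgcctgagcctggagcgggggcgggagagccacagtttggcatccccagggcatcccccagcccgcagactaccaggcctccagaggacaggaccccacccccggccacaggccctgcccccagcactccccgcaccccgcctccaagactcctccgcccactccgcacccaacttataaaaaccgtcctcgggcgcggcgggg
ACGTG on either strand was in 10 of the 20 hypoxia list promoters with a window, against 18.7% of all windows. The core is also contained in the E-box CACGTG, which other factors bind.

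The hypoxia genes with a 2-fold range at Day 60 were chosen by that range, so their values at the other days are given as a description. ADM was at 49.9, 51.1, 36.2 and 47.7 CPM in the 4 wells of Day 30 and at 38.4, 41.5, 44.7 and 41.4 CPM at Day 113. PFKFB4 was at 107.7, 88.2, 86.9 and 109.2 CPM at Day 30 and at 70.4, 43.9, 72.9 and 40.4 CPM at Day 113. Both the highest and the lowest ADM levels of all 11 wells were thus at Day 60. STC2 was at 107.2, 120.1, 98.2 and 96.98 CPM at Day 30 and at 155.5, 87.2, 139.3 and 97.3 CPM at Day 113. Of the 23 hypoxia genes, 2 had a 2-fold range at Day 30 (3.07% of all genes) and 2 at Day 113 (8.38% of all genes). The difference in these counts from the 4 of Day 60 was not tested.

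Replicate 3 was the low well for the extracellular matrix. Of 37 matrix genes, all above the level cut, 31 were lowest in replicate 3 (39.3% of all genes) and 21 followed the order of replicate 1 above 2 above 3 (20.2% of all genes). A 2-fold range was seen for 6 of them (2.8% of all genes): COL6A3, DCN, BGN, COL15A1, COL8A1 and COL1A2. COL6A3 (chromosome 2, 237324018 to 237414164), a chain of the microfibrillar collagen VI, was at 75.3, 45.6 and 18.9 CPM, a 3.98-fold range, which was 1.65-fold without replicate 3. COL1A2 (chromosome 7, 94394895 to 94431227), a chain of type I collagen, was at 813.2, 648.8 and 406.4 CPM, a 2.00-fold range that fell to between 1.93 and 1.99 with the other scalings. COL1A1, its partner chain, was at 1004, 855.9 and 560.2 CPM, and COL3A1, type III collagen, at 1515, 1514 and 885.4 CPM. Replicate 3 was lowest for all 4 collagens, and replicates 1 and 2 were nearly level for COL3A1.

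Among 17 microfibril and elastic fibre genes, listed after the values had been seen, 11 were lowest in replicate 3 (39.3% of all genes), 5 in replicate 1 and 1 in replicate 2. A 2-fold range was seen for 4 of them (2.8% of all genes). SVEP1, a large matrix adhesion protein, was at 9.86, 9.84 and 1.99 CPM, a 4.93-fold range. EMILIN1, an elastin microfibril interface protein, was at 19.9, 20.1 and 7.32 CPM. FBLN5, a fibulin needed for elastic fibre assembly, was at 10.3, 8.40 and 3.34 CPM. Replicates 1 and 2 were close in each of these 3 genes and replicate 3 stood alone below.

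The summed level of 15 fibroblast and epicardial markers was 3834, 3489 and 2330 CPM in replicates 1, 2 and 3. Of the 13 markers above the level cut, 9 were lowest in replicate 3, against 39.3% of all genes. DCN, the proteoglycan decorin, was at 32.6, 51.2 and 19.02 CPM, with replicate 2 highest. TBX18, an epicardial transcription factor, went the other way at 119.8, 111.2 and 182.3 CPM. Without replicate 3, none of the matrix genes and none of the fibroblast markers had a 2-fold range, and without replicate 1 the numbers were 4 and 3. Over all 11783 genes, 141 had a 2-fold range without replicate 3 and 136 without replicate 1, so 0 in lists of this size says little.

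Base composition moved with the values of replicates 2 and 3. In the fifth of genes with the lowest GC content the median gene lay 0.08 above its mean over the wells in replicate 3, and in the fifth with the highest GC content 0.12 below, in log2 units. Replicate 2 ran the opposite way, from -0.07 to 0.09. The 39 genes set apart by low values in replicate 3 had a median GC content of 57.3%, against 47.7% over all genes, and the count was 25 once GC content and length had been corrected for. After that correction BGN, COL15A1 and STC2 had ranges of 1.99-fold, 1.95-fold and 1.94-fold, and 26 of the 37 matrix genes and 17 of the 23 hypoxia genes were lowest in replicate 3. The 12S and 16S mitochondrial ribosomal RNAs summed to 34030, 30220 and 39930 CPM, highest in replicate 3. How far library quality sets these values was not tested.

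**Figure D3:**
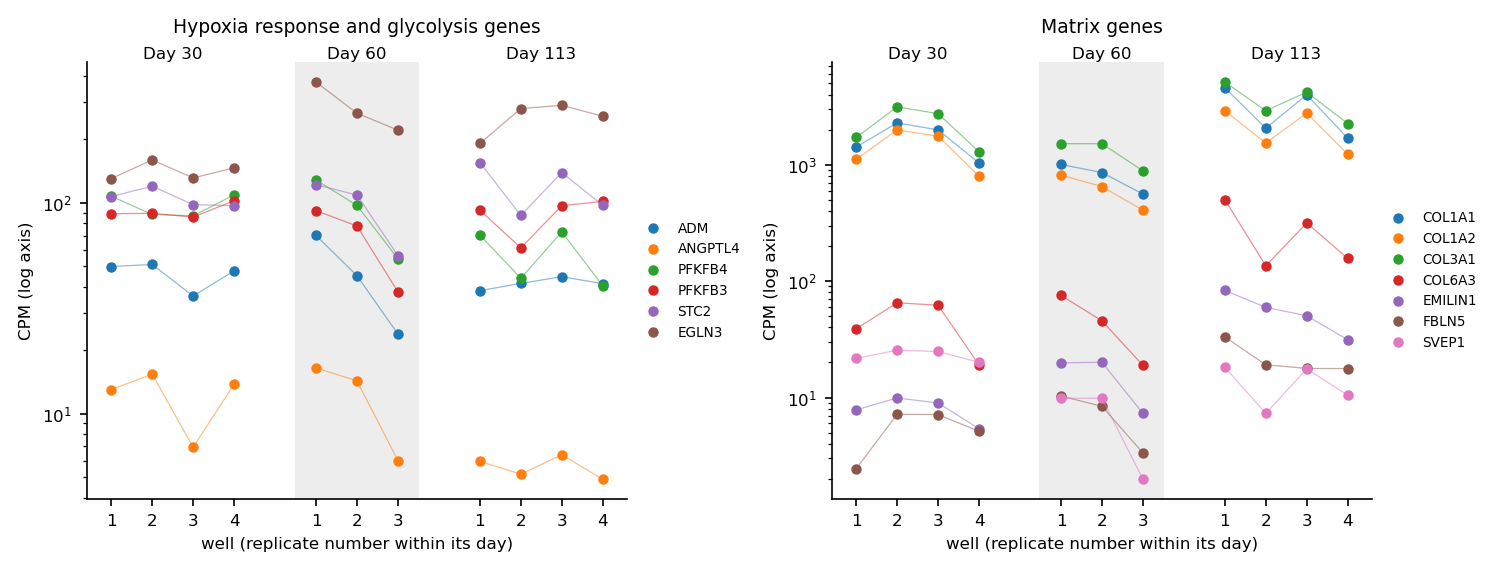
CPM on a log axis for 6 hypoxia response or glycolysis genes (left) and 7 matrix genes (right) in the wells of Day 30, Day 60 (shaded) and Day 113; points are single wells and thin lines only join the values of 1 gene. Within Day 60 replicate 3 is the lowest well for all 13 genes.

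Matrix genes varied between the wells of the other days too. COL1A2 was at 1112, 1988, 1757 and 796.9 CPM at Day 30 and at 2908, 1532, 2778 and 1231 CPM at Day 113. COL6A3 was at 38.9, 65.1, 62.1 and 19.03 CPM at Day 30 and at 500.3, 135.3, 315.5 and 156.5 CPM at Day 113. All 3 Day 60 wells lay below all Day 113 wells for both genes. EMILIN1 was at 7.83, 9.91, 8.98 and 5.39 CPM at Day 30 and at 83.2, 59.5, 50.4 and 31.3 CPM at Day 113. Of the 37 matrix genes, 17 had a 2-fold range over the 4 wells of Day 30 (3.07% of all genes) and 23 over those of Day 113 (8.38% of all genes), beside 6 over the 3 wells of Day 60. A range over 4 wells is wider than one over 3 by construction.

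The cardiomyocyte markers had a median range of 1.25-fold, near the 1.23-fold of all genes. Of the 12 cardiomyocyte markers, 10 were highest in replicate 1 (36.0% of all genes), and 1, MYH6, had a 2-fold range (2.8% of all genes). MYH6 (chromosome 14, 23381987 to 23408273), which encodes the fast alpha myosin heavy chain of atrial muscle, was at 1822, 663.1 and 763.6 CPM, a 2.75-fold range. Its neighbour MYH7 (23412740 to 23435660), the slow beta chain, was at 15730, 14580 and 13250 CPM. The genes are near-identical in sequence, so the split of reads between them is uncertain. Replicate 1 thus stood alone for MYH6 and not for MYH7, and without replicate 1 the MYH6 range was 1.15-fold. In the wells of Day 30 MYH6 was at 1159, 955.4, 832.7 and 1120 CPM, and at Day 113 at 932.2, 677.4, 583.2 and 1049 CPM, so the value of Day 60 replicate 1 was the highest of the 11 wells.

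Of 27 sarcomere genes, 3 had a 2-fold range (2.8% of all genes): MYH6, ACTA1 and XIRP2. ACTA1, skeletal alpha-actin, was at 114.5, 51.5 and 104.9 CPM, which set replicate 2 apart below both other wells. ACTC1, cardiac alpha-actin, was at 5864, 3470 and 4115 CPM, with replicate 2 again lowest. None of the 16 calcium handling genes had a 2-fold range (2.8% of all genes), and 14 were highest in replicate 1 (36.0% of all genes). ATP2A2, the calcium pump of the sarcoplasmic reticulum, was at 2286, 1584 and 1684 CPM. PLN, its inhibitor phospholamban, was at 5864, 4455 and 5408 CPM. Replicate 1 was highest for both, and 11 of the 16 genes were lowest in replicate 2 (32.5% of all genes).

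Of 19 genes of atrial, ventricular and nodal identity, 12 were highest in replicate 1, 2 in replicate 2 and 5 in replicate 3. Over all genes these shares were 36.0%, 32.7% and 31.4%. The list had a median range of 1.31-fold. A 2-fold range was seen for 3 of them (2.8% of all genes), SHOX2, KCNA5 and NR2F1. SHOX2, a pacemaker transcription factor, was at 11.7, 4.09 and 5.93 CPM. HCN4, the pacemaker channel, was at 350.2, 238.0 and 256.8 CPM, a 1.47-fold range. KCNA5, an atrial potassium channel, was at 17.9, 15.5 and 7.92 CPM, with replicate 3 lowest. NR2F1, an atrial factor that neural cells also express, was at 19.3, 40.6 and 39.8 CPM, with replicate 1 lowest. SHOX2, HCN4 and KCNA5 were highest in replicate 1.

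Cell cycle genes had a median range of 1.33-fold, against 1.23-fold over all genes. None of the 30 genes had a 2-fold range (2.8% of all genes). Replicate 2 was lowest for 20 of them (32.5% of all genes), and 17 followed the order of replicate 1 above 3 above 2, which 15.7% of all genes had. MKI67, a proliferation marker, was at 130.0, 82.4 and 100.8 CPM, and TOP2A, a topoisomerase of dividing cells, at 390.8, 264.0 and 374.1 CPM. The cytosolic ribosomal protein genes ran nearly opposite. Of 39 genes, 31 were highest in replicate 2 (32.7% of all genes) and 35 lowest in replicate 1 (28.1% of all genes), with medians of -0.13 and 0.13 around the gene's mean in replicates 1 and 2. With the same correction, 21 were highest in replicate 2 and 34 lowest in replicate 1.

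Endothelial markers were low, with 5 of 14 above the level cut, and all 5 were highest in replicate 2 (32.7% of all genes). CDH5, the endothelial cadherin, was at 7.24, 11.3 and 4.95 CPM, a 2.27-fold range. KDR, a receptor for VEGF, was at 15.96, 26.2 and 18.99 CPM. The list summed to 85.06, 121.9 and 75.2 CPM over its 14 genes. These are low levels beside those of the cardiomyocyte markers in the same wells.

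In several other lists no gene had a 2-fold range, which at 2.8% of all genes says little about lists of this size. Their median ranges, beside 1.23-fold over all genes, were 1.16-fold for 37 oxidative phosphorylation genes, 1.22-fold for 22 heat shock and chaperone genes and 1.22-fold for 22 fatty acid oxidation genes. They were 1.26-fold for 24 cholesterol synthesis genes and 1.32-fold for 19 immediate early and AP-1 genes. Of these 19 genes, 13 were lowest in replicate 3 (39.3% of all genes).

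**Figure D4:**
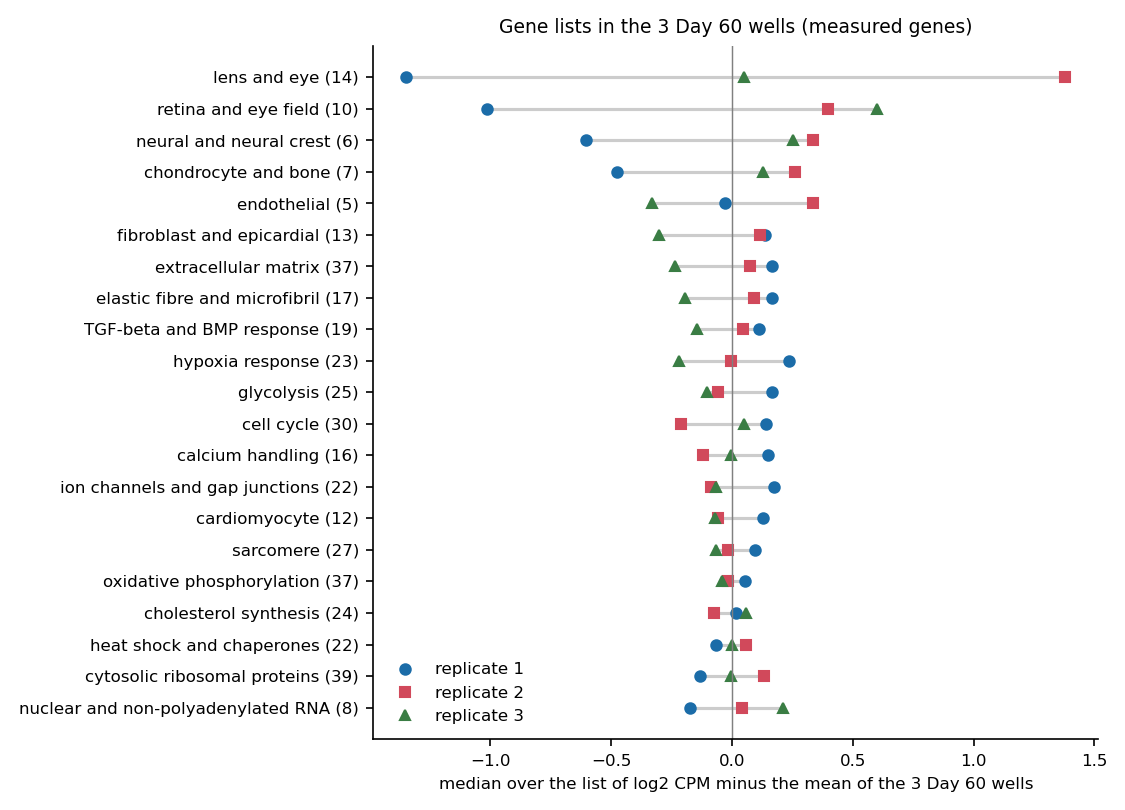
For 21 gene lists, the median over the list of log2 CPM in each Day 60 well minus the gene's mean over the 3 wells; the number of genes above the level cut stands beside each name, circles are replicate 1, squares replicate 2 and triangles replicate 3. The lens list spans from -1.35 in replicate 1 to 1.38 in replicate 2, while the oxidative phosphorylation list stays within 0.06 of 0.

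Among genes on no list, several set a single well apart. MELTF, melanotransferrin, an iron-binding membrane protein, was at 88.4, 28.0 and 37.3 CPM and TGFA, a ligand of the EGF receptor, at 13.4, 4.94 and 4.54 CPM. Both set replicate 1 apart above the others. PDE1A, a calcium-dependent phosphodiesterase, was at 8.52, 2.14 and 7.16 CPM, which set replicate 2 apart below. PROCR, the receptor of protein C on endothelium, was at 5.49, 8.92 and 1.80 CPM and GPRC5A, an orphan receptor, at 8.04, 7.52 and 1.51 CPM. Both set replicate 3 apart below. MELTF was at 18.03 to 26.9 CPM at Day 30 and at 8.47 to 14.9 CPM at Day 113, so replicate 1 of Day 60 was the highest of the 11 wells.

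Covariation over 3 wells can be described by order only, and 6 orders exist. Over all genes the shares were 20.2% for replicate 1 above 2 above 3, 19.1% for 2 above 1 above 3, 16.8% for 3 above 1 above 2, 15.7% for 1 above 3 above 2, 14.6% for 3 above 2 above 1 and 13.6% for 2 above 3 above 1. Among the 330 genes with a 2-fold range the numbers were 68, 69, 27, 25, 69 and 72 in the same sequence. The order of the lens genes (2 above 3 above 1) was thus held by 13.6% of all genes and by 72 of the 330. These shares of all genes move with the scaling: replicate 1 was highest for 36.0% of genes with TMM and for 26.3% with library totals.

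The genes with a 2-fold range at Day 60 were then followed over the wells of the other days. Over the 4 wells of Day 30, 107 of the 330 genes (32.4%) had a 2-fold range, against 3.07% of all genes. Over the 4 wells of Day 113 the number was 167 (50.6%), against 8.38% of all genes, and 85 of the 330 had one at both days. The 330 genes were lower, with a median of 8.70 CPM against 34.3 CPM for all genes. Some passed the level cut through high values at Day 60 alone, and a gene near 0 reaches a 2-fold range easily.

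Counts restricted by level were therefore added after seeing the data. Of the 330 genes, 228 also had a mean of at least 5 CPM at Day 30, and 43 of these (18.9%) had a 2-fold range there, against 2.06% of the 11434 genes that met the same cut. At Day 113 it was 101 of 238 (42.4%), against 6.89% of 11362. Among genes of 5 to 20 CPM at Day 60 the shares were 30.3% and 48.7% for the 330 genes, and 7.77% and 17.4% for all. Of the 68 genes set apart by low values in replicate 1, 21 met the cut at Day 30 and 10 of them had a 2-fold range, and 28 of 39 had one at Day 113. Of the 39 genes set apart by low values in replicate 3, it was 8 of 37 and 10 of 31. Of the 18 genes set apart by high values in replicate 2, 4 met the cut at Day 30 and 0 of them had a 2-fold range, and at Day 113 it was 7 of 8. Differences between these groups were not tested.

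**Figure D5:**
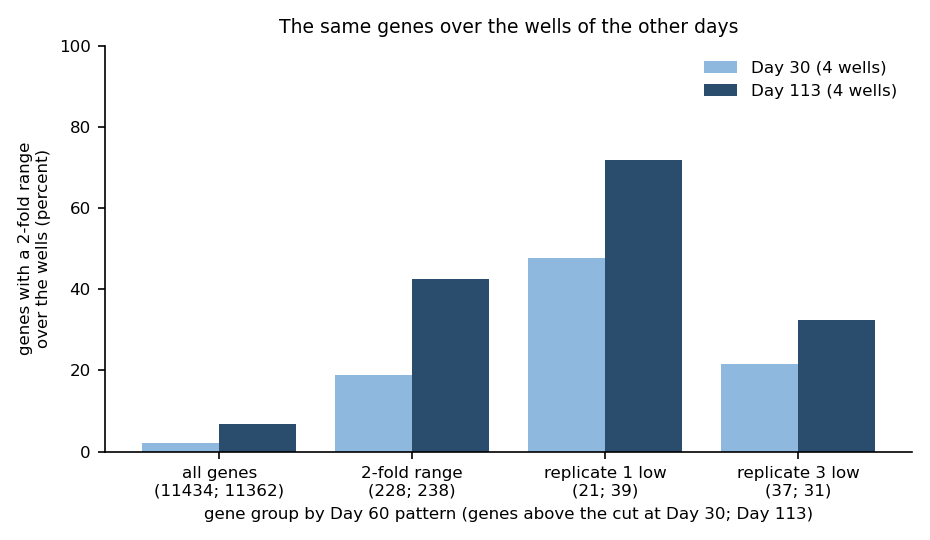
Percent of genes with a 2-fold range over the 4 wells of Day 30 (light bars) and of Day 113 (dark bars), among genes with a mean of at least 5 CPM at that day, for all genes and for 3 groups chosen by their Day 60 pattern; the numbers under the bars are the genes that met the cut at Day 30 and Day 113. The 330 genes with a 2-fold range at Day 60 reach 18.9% and 42.4%, against 2.06% and 6.89% of all genes.

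A test that uses no Day 60 library asked whether these genes change with days in culture. By edgeR's quasi-likelihood test on the 8 wells of Day 30 and Day 113, with Benjamini-Hochberg adjustment, 5129 of 11775 genes (43.6%) differed between those days at an adjusted p under 0.05. Of the 323 tested genes with a 2-fold range at Day 60, 146 (45.2%) did, 87 higher and 59 lower at Day 113, a share near that of all genes. Of the 61 tested genes set apart by low values in replicate 1, 26 (42.6%) did, 23 of them higher at Day 113 and 3 lower, where over all genes 2756 were higher and 2373 lower. CRYBB1 was higher at Day 113 by 5.23 ± 1.28 in log2 units (SE, edgeR quasi-likelihood test, adjusted p = 0.0065), a difference carried largely by replicate 2 of that day. RAX was higher by 2.17 ± 0.78 (SE, edgeR, adjusted p = 0.044), and the 0.97 ± 0.76 of PAX6 did not pass (SE, edgeR, adjusted p = 0.35). COL6A3 was higher by 2.60 ± 0.43 (SE, edgeR, adjusted p = 0.00057) and ANGPTL4 fell by 1.12 ± 0.23 (SE, edgeR, adjusted p = 0.0026).

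The 3 wells also stood at similar points between the earlier and the later day. For the 5129 genes that differed between Day 30 and Day 113, the median position, with 0 at the Day 30 mean and 1 at the Day 113 mean, was 0.276, 0.317 and 0.317 in replicates 1, 2 and 3. Among the genes higher at Day 113 it was 0.277, 0.305 and 0.27, and among those lower it was 0.274, 0.331 and 0.36. Replicate 1 therefore lay slightly nearer to Day 30 than replicate 2 in both directions. With 1 library per position these values carry no test.

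The spread within Day 60 was set beside that within the other days by the distance of each well from the mean of the other wells of its day. That mean rests on fewer wells at Day 60 than at the other days, which raises the Day 60 distances by construction. It was 0.239, 0.226 and 0.244 log2 units in the Day 60 wells (0.236 ± 0.00922, SD, n = 3). At Day 30 it was 0.222 ± 0.0139 (SD, n = 4), and at Day 113 it was 0.329 ± 0.0691 (SD, n = 4). Day 60 minus Day 30 was 0.0145 (two-sided exact permutation test, p = 0.171, adjusted over 2 tests 0.171). Day 60 minus Day 113 was -0.0923 (two-sided exact permutation test, p = 0.0857, adjusted 0.171). With 35 splits the smallest p possible was 0.0286, and neither difference passed the threshold of 0.05 by this measure.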

How the data were processed

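Poly(A) RNA of cardiomyocyte wells was sequenced as paired reads of 150 bases on a NovaSeq 6000 instrument, as the labels' protocols state. The authors deposited raw read counts per gene symbol. STAR 2.5.3a, featureCounts 2.0.3 and hg38 are named in the submitters' processing notes. A deposited TPM table was not used, since the gene lengths it implies differ between libraries.

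CPM was taken from counts with TMM scaling over the 11 libraries (edgeR 4.0.16, R 4.3.3), and log2 values used a pseudocount of 0.5 counts. The libraries hold no molecular identifiers, so counting errors cover counting alone. Day 113 against Day 30 was tested with edgeR's quasi-likelihood test on those 8 libraries. Well distances were compared by exact permutation. The wells are titled as well replicates of 1 line at 1 passage, so p-values measure only the spread between such wells.

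Genes named are the 20 with the largest SD, the 5 with the largest gap for each well and direction, the 10 with the widest range above 500 CPM, the 5 most stable above 100 CPM, and members of 40 gene lists and 3 lists added later. Others are said to be picked afterwards, and a few of these genes are left out here. Groups and lists were chosen with earlier results of these data known. The procedure was run on simulated data with less variation between wells than was estimated for Day 60. That run therefore gives no error rate for the 2-fold and set-apart counts. Alternatives were other scalings, level cuts, pseudocounts, left-out wells and a GC and length correction, the last added after seeing the data. Gene positions and promoters are from RefSeq (GRCh38.p14), and 97.5% of genes had a length and GC value.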

Additional observations from a re-analysis of the deposited data

Results flagged for a closer look

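In 34 sets of 4 wells of Day 30 or Day 113 whose gene levels are examined above, 5 had 1 well far from the other 3. For independent sets chance alone would flag about 1 in 20. These sets share wells, their genes vary together and many were named for varying at Day 60. The comparison therefore cannot decide whether chance was exceeded. Replicate 2 of Day 113 stood apart for CRYAA at 9.63 CPM, for CRYBB1 at 37.6 CPM and for CRYBA1 at 20.6 CPM, each the highest of the 4 wells. CRYAA in Day 30 replicate 3, at 0.198 CPM, was the one well of that day with any count of this gene. RAX in Day 30 replicate 4, at 1.72 CPM, lay above 3 wells at 1.40 to 1.45 CPM.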

How the results depend on the processing

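The number of genes with a 2-fold range depended mainly on the level cut and on the fold. With a mean of at least 1 CPM it was 2045, and with at least 20 CPM it was 53. The counts set apart (replicate 1 high, 1 low, 2 high, 2 low, 3 high, 3 low) were then 96, 363, 136, 168, 180 and 320, and 2, 17, 8, 2, 0 and 2. At 1.5-fold, chosen after seeing the data, the range count was 1701 and the others 80, 188, 107, 95, 96 and 233. Library totals and a pseudocount of 2 each left 1 gene set apart high in replicate 3, and the GC and length correction, also added later, left 25 set apart low there. Leaving out 1 well gave 136 to 196 genes with a 2-fold range (136, 196 and 141 without replicates 1, 2 and 3), and set-apart counts need all 3 wells. Of 73 named genes with a 2-fold range, 66 kept it under every scaling, pseudocount and correction run, and 41, 55 and 41 without replicates 1, 2 and 3. The distance of Day 60 minus Day 30 by median absolute differences was 0.0263 (exact permutation test, p = 0.0286 before adjustment). That is the smallest p possible and lies under 0.05, which the main measure did not reach (exact permutation test, p = 0.171). This measure too compares days with unequal numbers of wells, so no conclusion is drawn from it. With genes changed at least 2-fold the positions were 0.366, 0.383 and 0.379. Same-numbered wells of Day 30 and Day 113 had deviations that correlated at 0.241, 0.155, 0.155 and 0.0652, not all above 0.1, so the numbers were not used as a pairing. With the replicate block the distances differed by 0.0203 and -0.11 (exact permutation tests, p = 0.25 for both). That is the smallest p this blocked test can give, so it could not pass 0.05 and no conclusion is drawn from it. With the same block 5340 genes differed between Day 113 and Day 30. That count was 5408 with DESeq2 and 4057 to 5295 with 1 well left out. Where a value moved, the cause was not tested. Of genes at 5 to 20 CPM, where counts are fewest, 7.22% had a 2-fold range.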

Other observations

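By kind of gene, a 2-fold range at Day 60 was seen for 22 of 340 long noncoding RNAs (6.47%) and 287 of 11121 protein-coding genes (2.58%). Levels were not matched between the kinds. Of 7 chondrocyte and bone genes above the level cut, 4 were lowest in replicate 1 (28.1% of all genes), 1 in replicate 2 and 2 in replicate 3. A 2-fold range was seen for 2 of the 7 (2.8% of all genes). COL9A2 was at 30.3, 64.8 and 50.6 CPM and COL9A3 at 19.2, 44.6 and 28.7 CPM in replicates 1, 2 and 3, both lowest in replicate 1.

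Of 15 genes of the natriuretic peptide and wall stretch list, 3 had a 2-fold range (2.8% of all genes), NPR3, ACTA1 and NFATC1. NPR3, the natriuretic peptide clearance receptor, was at 21.5, 35.3 and 11.9 CPM. DDIT3, a transcription factor of the integrated stress response, was at 25.6, 22.0 and 12.0 CPM, the only member of 27 unfolded protein and stress response genes with such a range. TNFAIP3, an inhibitor of NF-kB signalling and the only one of 8 cytokine and NF-kB genes with a 2-fold range, was at 9.70, 6.38 and 4.42 CPM. Replicate 3 was the lowest well for NPR3, DDIT3 and TNFAIP3.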
